A study of Mus musculus with 27 samples.

Results

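Interferon-stimulated genes are the genes that cells switch on when type I interferon binds its receptor. The 49 genes described here were chosen by name from the count table of the series, which lists 50559 genes, and selected on their mean level over the batch 1 libraries, at least 0.5 CPM (counts scaled to the library total). All 49 named genes met it, from Slfn4 at 4.93 CPM to Ifitm3 at 2720.0 CPM, so no named gene fell just outside the condition. The list was drawn up with earlier results of these data known, and its counts describe these libraries. They comprised 4 interferon-induced transmembrane (IFITM) genes, 6 Schlafen genes, 8 genes of the Ifi200 family, 4 genes of transcription and feedback, 4 sensors of nucleic acids, 5 oligoadenylate synthetase (OAS) genes, 15 other antiviral effectors and 3 guanylate-binding proteins (GBP).

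In the classical pathway, type I interferon acts through its receptor and the Janus kinases to activate a complex that includes STAT2 and IRF9 and binds the interferon-stimulated response element (ISRE) in promoters. The products detect foreign RNA and DNA, block viral entry, translation and replication, and in the case of IRF7 and USP18 amplify or damp the pathway itself. Macrophages keep a basal level of these transcripts in culture without added interferon.

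The study asked how a medium conditioned by murine malignant peripheral nerve sheath tumor cells (MPNST-CM) acts on macrophages with or without the mitochondrial chaperone TRAP1. Bone marrow of female C57BL/6 mice aged 3 to 4 months, WT or TRAP1 KO, was differentiated in L929 fibroblast-conditioned medium to unpolarized macrophages (Mφ, called M0 in the labels), and part of the cells was then given IL-4 at 10 ng/ml for 24 h to obtain M2 macrophages. Each population received MPNST-CM or control medium (DMEM) for 48 h, which gave 8 groups. Batch 1 held 24 libraries, 3 in each group, and batch 2 held 3 further libraries. The groups were WT Mφ in control medium, WT Mφ in MPNST-CM, TRAP1 KO Mφ in control medium, TRAP1 KO Mφ in MPNST-CM, and the same 4 for M2 macrophages. The labels do not say whether libraries of a group came from separate animals, so p-values measure the spread between these libraries, which may be technical.

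Total counts were 7037684 to 9089792 in batch 1 and 9997776 to 11152362 in batch 2. Trap1 stood at 10.4 to 20.7 CPM in the 13 WT libraries and at 0 counts in all 12 TRAP1 KO libraries of batch 1. Xist, transcribed from the inactive X chromosome, stood at 268 to 501 CPM in WT and at most 1.13 CPM in the TRAP1 KO libraries of batch 1, although all mice are labelled female. The Y-linked genes Ddx3y and Kdm5d were at 0 counts in all 27 libraries. Genotype and this difference cannot be told apart within batch 1, and every TRAP1 KO against WT value below is subject to it. Macrophage markers summed to 4843 to 6928 CPM in batch 1. The 4 B cell markers summed to at most 0.396 CPM and the 5 T cell markers to at most 4.32 CPM.

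Batch 2 stood apart. All 24 libraries of batch 1 correlated best with their own group, and 1 of the 3 libraries of batch 2 did. The batch 2 library labelled TRAP1 KO M2 in control medium was closest to TRAP1 KO Mφ in MPNST-CM (Spearman's rho 0.970 against 0.914 with its own group), and Retnla, an IL-4 response gene, was at 23.99 CPM there against 1731 to 2029 CPM in its group. The batch 2 library labelled TRAP1 KO M2 in MPNST-CM was closest to WT M2 in control medium (0.983 against 0.949), with Retnla at 4463 CPM against 213 to 235 CPM in its group. Xist was at 403 and 307 CPM in these libraries, in the order given, unlike the other TRAP1 KO libraries. Trap1 was at 0.191 and 0 CPM in them, against 0 counts in the other TRAP1 KO libraries and 10.4 to 20.7 CPM in WT. Results below are from batch 1, and where a printed log2 fold change of a named gene lost its call across all 27 libraries, that value is given later in the same paragraph. In bulk RNA, fewer cells of a kind and less RNA per cell cannot be told apart.

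The 49 genes had their lowest levels in M2 macrophages in control medium, and one group of M2 macrophages stood with the Mφ groups. The mean log2 CPM over all 49 genes was 4.03 to 4.09 in the 3 libraries of WT M2 in control medium, 4.26 to 4.40 in TRAP1 KO M2 in control medium and 4.72 to 4.79 in WT M2 in MPNST-CM. In TRAP1 KO M2 in MPNST-CM it was 6.56 to 6.57, overlapping the highest Mφ group, TRAP1 KO Mφ in control medium, at 6.53 to 6.59. The 3 other Mφ groups lay between, at 6.26 to 6.38 in TRAP1 KO with MPNST-CM, 6.08 to 6.14 in WT with control medium and 5.94 to 5.98 in WT with MPNST-CM. Apart from the leading pair, no 2 neighbouring groups in this order overlapped. The same measure in the batch 2 libraries was 5.39 for WT Mφ without MPNST-CM and, for TRAP1 KO M2, 7.23 without and 4.53 with MPNST-CM, each outside the range of its group.

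**Figure D1:**
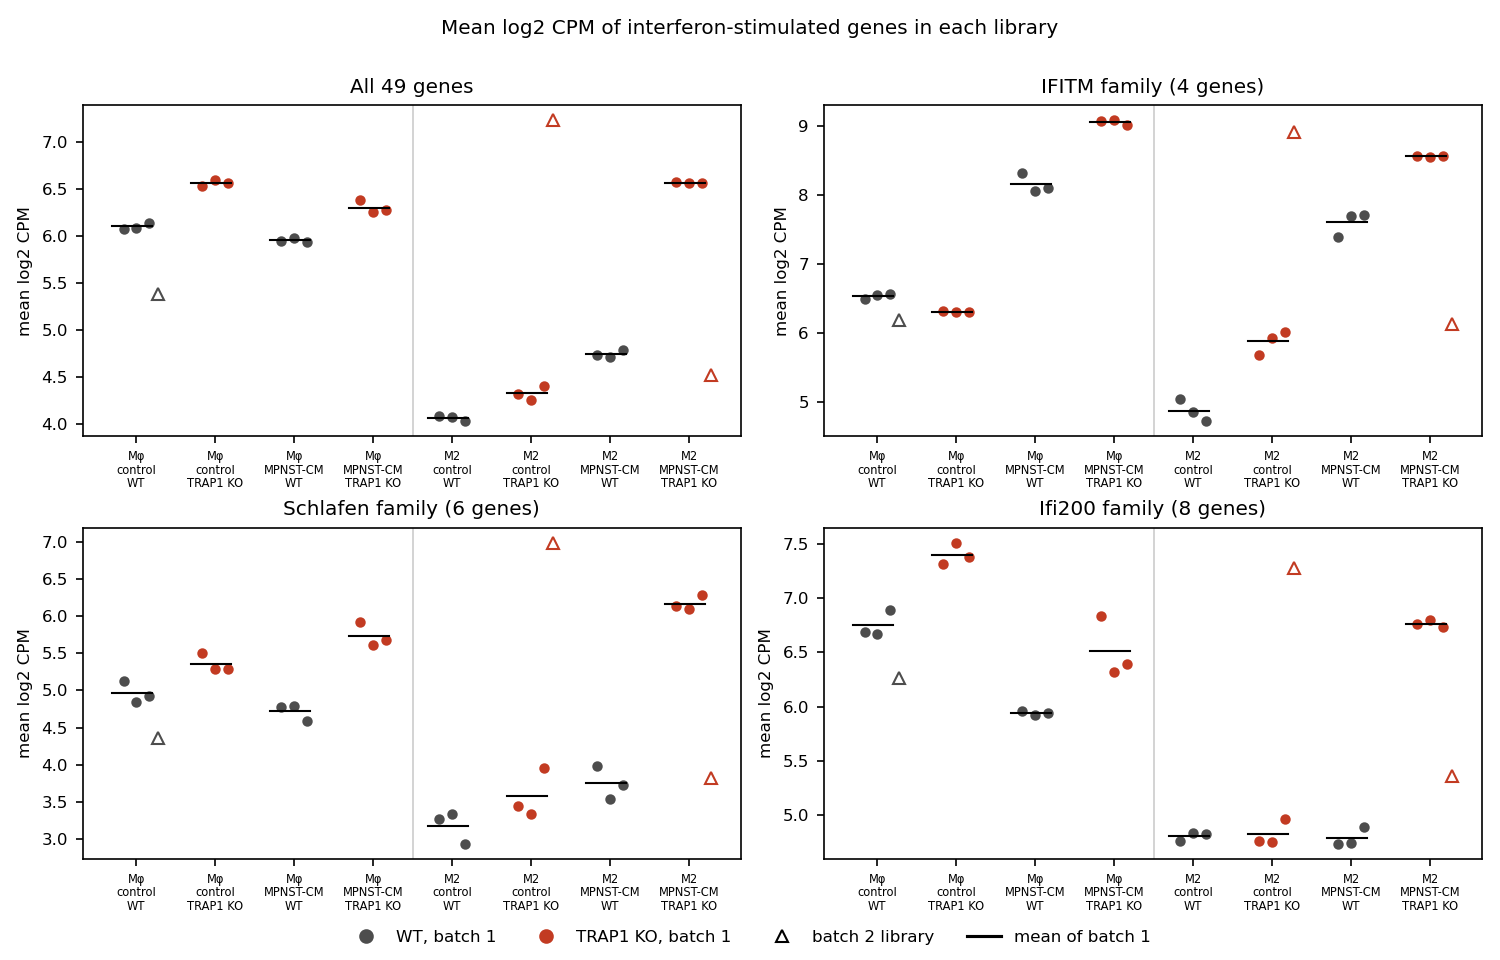
Mean log2 CPM (vertical axis) of all 49 genes and of the IFITM, Schlafen and Ifi200 families in each library, by group on the horizontal axis. Filled points are batch 1 libraries (grey WT, red TRAP1 KO), lines are batch 1 means, and open triangles are the 3 batch 2 libraries. TRAP1 KO M2 in MPNST-CM lay at 6.56 to 6.57 over all genes, and the other 3 M2 groups between 4.03 and 4.79.

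IL-4 polarization went with lower levels of nearly the whole list in control medium. In WT cells 45 of 49 genes were lower in M2 than in Mφ (edgeR quasi-likelihood test with p adjusted by Benjamini-Hochberg over 13614 genes, threshold 0.05), beside 18.1% of all genes tested, with a median log2 fold change of -2.21. In TRAP1 KO cells 47 of 49 were lower, beside 12.9%, with a median of -2.28. In MPNST-CM, WT M2 were still lower than WT Mφ for 43 of 49 genes (background 13%, median -1.26). Between TRAP1 KO M2 and TRAP1 KO Mφ in MPNST-CM, 15 genes were higher and 4 lower, beside 6.71% and 4.47% of all genes, with a median of 0.24. The median log2 fold change over all genes was within 0.06 of 0 in each of the 16 comparisons. With all 27 libraries 29, 14 and 8 genes were lower in the first 3 of these comparisons, with medians of -2.05, -0.86 and -1.24, beside backgrounds in either direction of 26.9%, 16.1% and 8.77%, while in the TRAP1 KO comparison in MPNST-CM edgeR called 0 of the 49 (3 at an unadjusted p under 0.05, DESeq2 not run on these) and 3.46% of all genes, with a median of -0.05. When a log2 change of at least 1 was also required, 40, 44, 29 and 3 of the 49 genes passed in the 4 comparisons, in that order, beside 14.2%, 9.81%, 6.79% and 3.29% of all genes.

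In batch 1 MPNST-CM raised the list in M2 macrophages, far more in TRAP1 KO than in WT cells, and with all 27 libraries this order of the medians turned. In TRAP1 KO M2, 46 of 49 genes were higher with MPNST-CM, beside 16.7% of all genes (20.2% were lower), and the median log2 fold change was 2.09. In WT M2, 27 were higher and 3 lower, beside 11.2% and 13.3%, with a median of 0.66. The difference between the 2 responses was itself tested by an interaction term, which was higher in TRAP1 KO for 40 genes and lower for 2, beside 9.36% and 10.8% of all genes, with a median of 1.38. Over all 27 libraries, in which the batch 2 libraries of both TRAP1 KO M2 groups entered, 1 gene was called in the TRAP1 KO comparison and 2 in the interaction, beside 6.02% and 1.31% of all genes. The median then was 0.37 in TRAP1 KO M2, 0.72 in WT M2 and -0.05 in the interaction. In WT M2, 4 genes were higher and 1 lower with all 27 libraries, beside 7.39% in either direction. With the log2 minimum of 1, 39 genes passed in TRAP1 KO M2, 15 in WT M2 and 30 in the interaction, beside 14.3%, 6.86% and 8.92% of all genes.

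In Mφ the same medium lowered more of the list than it raised. In WT Mφ 5 genes were higher and 15 lower with MPNST-CM, beside 11.3% and 9.96% of all genes, with a median log2 fold change of -0.25. In TRAP1 KO Mφ 8 were higher and 24 lower, beside 14.8% and 18.1%, with a median of -0.37. The interaction term in Mφ was higher in TRAP1 KO for 7 genes and lower for 13 (background 8.17% and 11.5%). The 24 lower genes in TRAP1 KO Mφ included 10 of 15 antiviral effectors and 5 of 8 Ifi200 genes, and the 8 higher ones included all 4 IFITM genes, Slfn1, Slfn4, Irf7 and Rtp4. When the WT Mφ library of batch 2 alone was added, WT Mφ had 6 higher and 9 lower genes and a median of -0.05. With all 27 libraries the median was -0.06, and the counts were 1 higher and 1 lower in WT and 3 higher and 10 lower in TRAP1 KO Mφ, beside 6.98% and 19.3% in either direction, and 2 genes passed in the interaction, beside 4.76%. With the log2 minimum of 1, WT Mφ had 2 genes that passed, both of them higher with MPNST-CM, beside 3.84% of all genes. In TRAP1 KO Mφ and the interaction 18 and 11 genes passed, beside 12.8% and 8.91%.

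**Figure D2:**
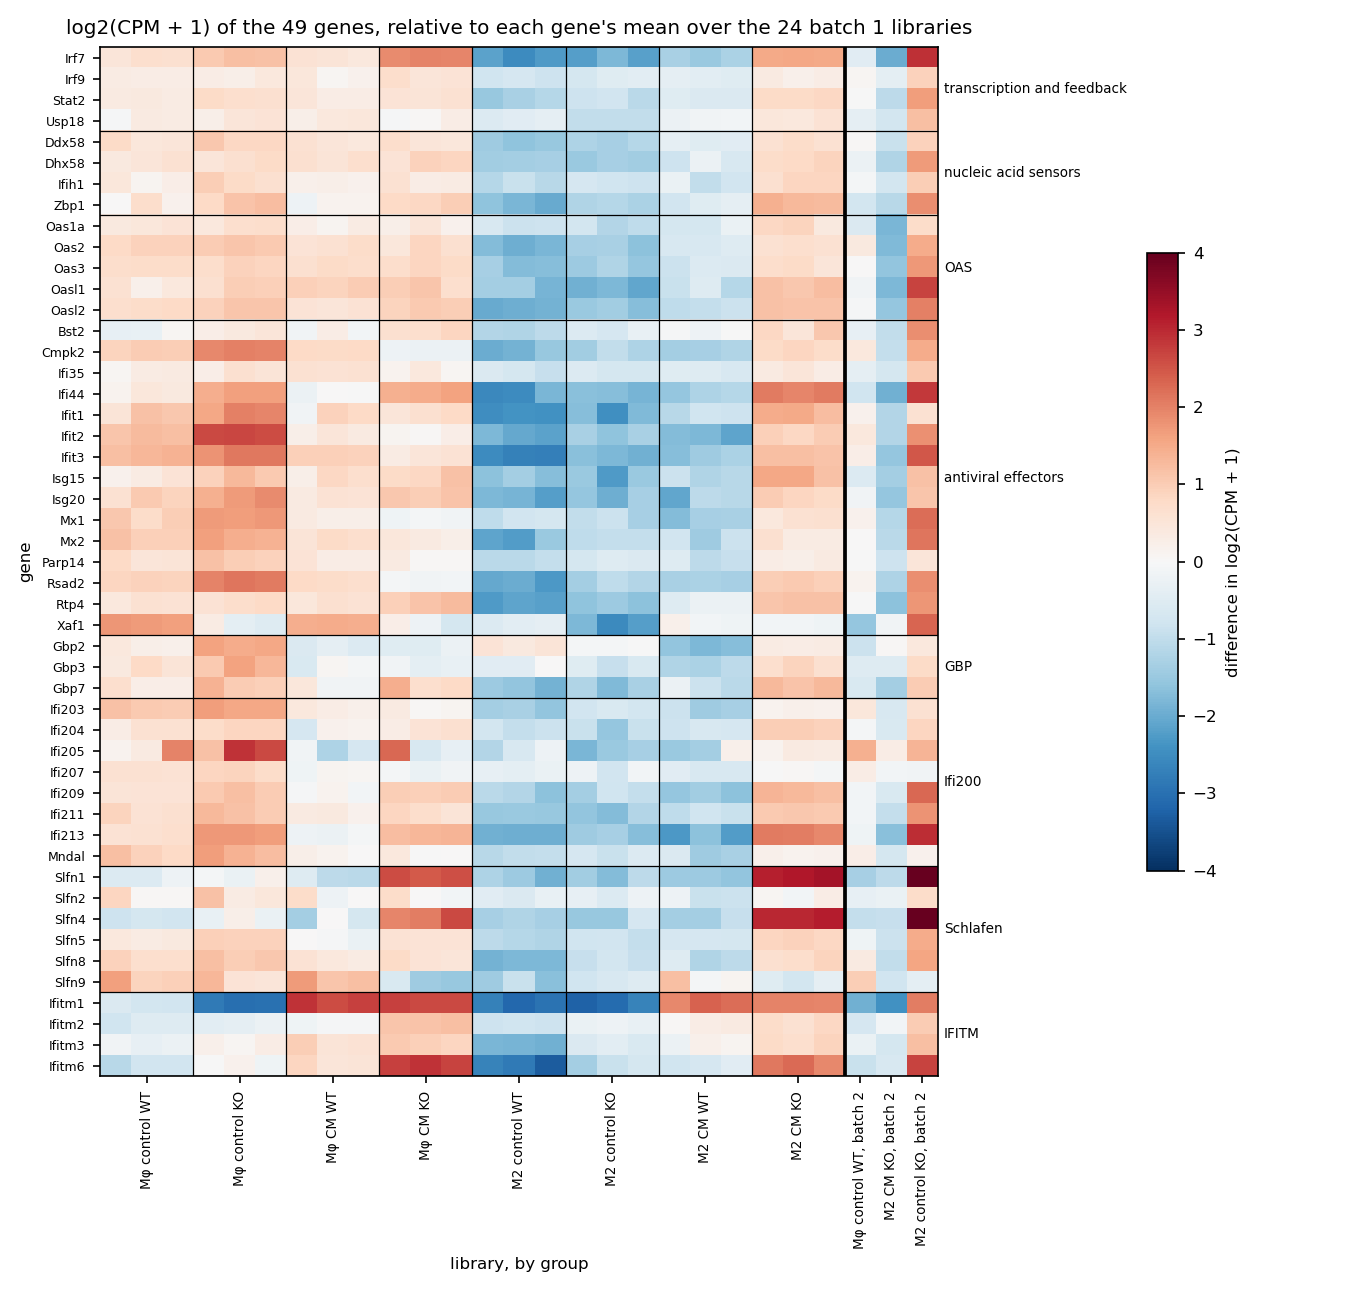
log2(CPM + 1) of the 49 genes (rows, by family) in every library (columns, by group, the 3 batch 2 libraries at the right), as the difference from each gene's mean over the 24 batch 1 libraries. M2 groups other than TRAP1 KO in MPNST-CM were below the mean for most genes, and the batch 2 library labelled TRAP1 KO M2 in control medium was above it for most.

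In each setting more of the list was higher than lower in TRAP1 KO cells, and in batch 1 the median difference was largest in M2 exposed to MPNST-CM. There, 44 of 49 genes were higher and 1 lower in TRAP1 KO, beside 17.2% and 16.8% of all genes, and the median log2 fold change was 1.68. In Mφ in control medium 31 were higher and 2 lower (background 8.64% and 7.97%, median 0.54). In Mφ in MPNST-CM 19 were higher and 7 lower, beside 19.1% and 19.2%, with a median of 0.19. In M2 in control medium 20 were higher and 3 lower (background 8.56% and 7.87%, median 0.35). The contrast of TRAP1 KO with WT was larger in M2 than in Mφ for 39 genes in MPNST-CM and smaller for 1 (background 4.06% and 3.12%), and in control medium it was larger for 5 and smaller for 7 (background 3.86% and 3.22%). With all 27 libraries 19 genes were higher and 1 lower in TRAP1 KO M2 in MPNST-CM, 1 was higher in Mφ in control medium, and 2 were higher and 1 lower in Mφ in MPNST-CM, beside 12.2%, 6.22% and 22.6% in either direction. In M2 in control medium 16 were higher (8.29%), with a median of 1.71 against 1.35 in M2 in MPNST-CM, so the order of these medians turned, and the contrasts between M2 and Mφ had 1 gene each in control medium and MPNST-CM (1.24% and 0.947%). With the log2 minimum of 1, 8 and 11 genes differed between genotypes in Mφ in control medium and MPNST-CM and 5 and 39 in M2, beside 4.37%, 12.3%, 3.86% and 11.3%, and the contrast between M2 and Mφ held for 6 and 34 genes, beside 3.13% and 3.16%.

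**Figure D3:**
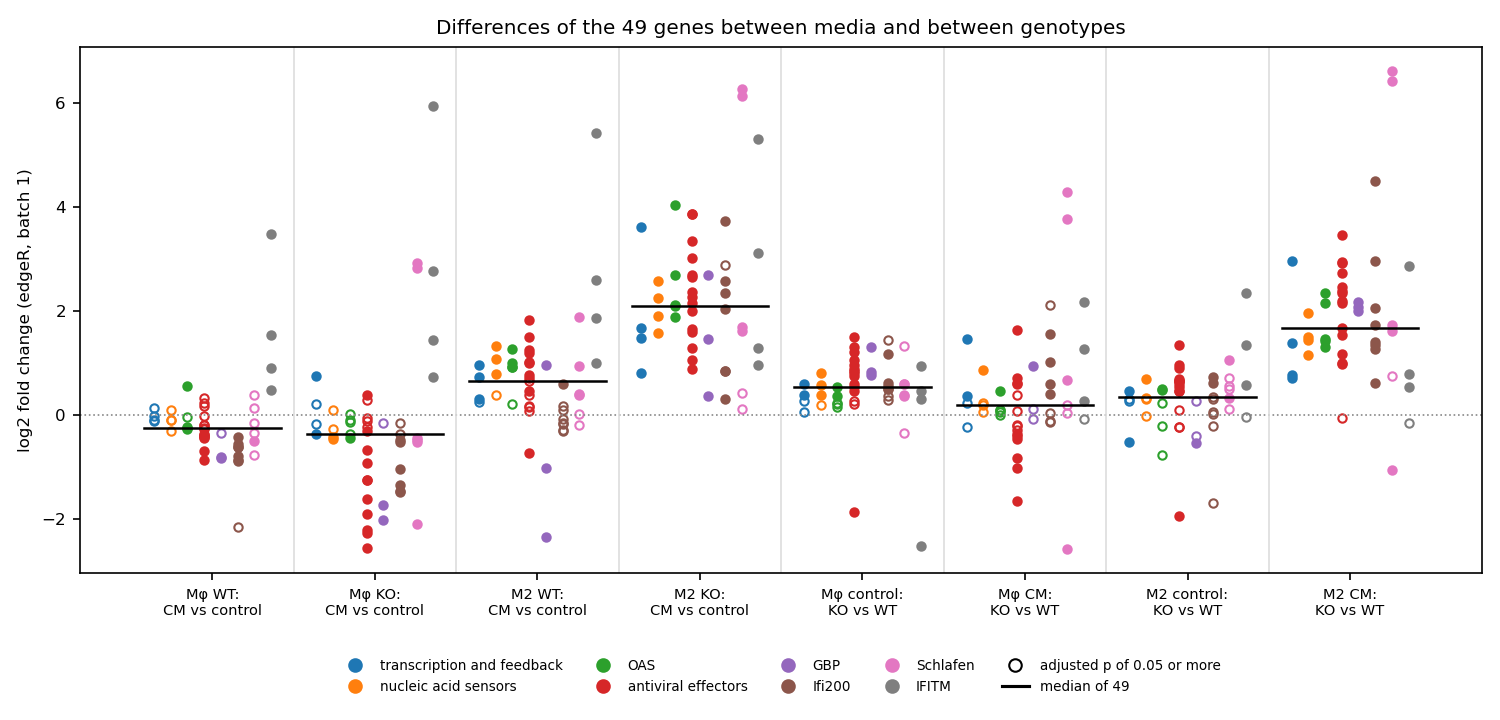
log2 fold changes (vertical axis, edgeR, batch 1) of the 49 genes for MPNST-CM against control medium in 4 settings and for TRAP1 KO against WT in 4 settings, coloured by family. Filled points had an adjusted p under 0.05, open points had not, and lines are medians over the 49 genes, the highest being 2.09 for MPNST-CM in TRAP1 KO M2.

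Irf7, the transcription factor that amplifies interferon gene expression, led the genes of transcription and feedback. Its levels in M2 in control medium were 17.6, 13.2 and 15.97 CPM in WT and 16.8, 22.8 and 17.1 CPM in TRAP1 KO. With MPNST-CM they were 32.1, 28.6 and 33.1 CPM in WT M2 and 234, 236 and 236 CPM in TRAP1 KO M2. The MPNST-CM libraries lay above their controls in both genotypes, and the TRAP1 KO libraries far above the WT ones. The log2 fold change was 3.61 ± 0.11 (SE) in TRAP1 KO M2 (adjusted p = 5.0e-19) and 0.96 ± 0.12 in WT M2 (adjusted p = 5.1e-07), and the interaction was 2.66 ± 0.16 (adjusted p = 2.9e-12). In Mφ, Irf7 was at 114, 129 and 125 CPM in WT with control medium and 123, 115 and 109 CPM with MPNST-CM, which overlapped. In TRAP1 KO Mφ it was at 167, 189 and 185 CPM and 306, 325 and 316 CPM, a log2 fold change of 0.76 ± 0.10 (adjusted p = 6.0e-07). The batch 2 libraries labelled TRAP1 KO M2 had 619 CPM in control medium and 19.7 CPM in MPNST-CM, in the opposite order to batch 1. Across 27 libraries, Irf7 lost its calls for MPNST-CM in TRAP1 KO M2, MPNST-CM in WT M2, the interaction in M2 and MPNST-CM in TRAP1 KO Mφ, at log2 fold changes of 0.10, 1.00, -0.91 and 0.81, respectively (adjusted p from 0.62 to 0.96).

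Stat2 and Irf9, whose products take part in the complex that binds the ISRE, rose with MPNST-CM in both M2 genotypes. Stat2 went from 50.8 ± 5.57 to 164 ± 3.13 CPM (SD, n = 3) in TRAP1 KO and from 37.6 ± 4.88 to 64.7 ± 2.23 CPM in WT. The batch 2 libraries labelled TRAP1 KO M2 had 301 CPM of Stat2 in control medium and 45.3 CPM in MPNST-CM. With all 27 libraries 0 of the 4 genes of transcription and feedback were called for MPNST-CM in TRAP1 KO or WT M2. The shares of all genes were 6.02% and 7.39% in either direction. Irf9 moved less, with log2 fold changes of 0.81 and 0.30. Usp18, which encodes a protease that removes ISG15 and restrains receptor signalling, was at 34.5, 36.3 and 38.9 CPM in WT and 24.9, 25.1 and 24.9 CPM in TRAP1 KO M2 in control medium, so that here TRAP1 KO lay below WT (log2 fold change -0.52 ± 0.12, adjusted p = 0.0025). In MPNST-CM the order was the reverse, with 42.6, 45.9 and 47.1 CPM in WT and 69.7, 67.5 and 76.4 CPM in TRAP1 KO (0.71 ± 0.11, adjusted p = 1.3e-05). With all 27 libraries the first of these turned to 0.41 (adjusted p = 0.56), and the batch 2 library labelled TRAP1 KO M2 in control medium had 118 CPM. Across 27 libraries, Irf9 lost its calls for MPNST-CM in TRAP1 KO M2 and MPNST-CM in WT M2, at log2 fold changes of 0.16 and 0.35 (adjusted p from 0.5 to 0.75). Across 27 libraries, Usp18 lost its call for genotype in M2 in MPNST-CM, at a log2 fold change of 0.43 (adjusted p = 0.56).

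The 4 sensors rose in TRAP1 KO M2 exposed to MPNST-CM and 3 of them in WT M2, beside 16.7% and 11.2% of all genes. With all 27 libraries 0 of the 4 were called in TRAP1 KO M2 or WT M2, beside 6.02% and 7.39% in either direction. Zbp1, which detects Z-form nucleic acid, was at 13.5, 14.3 and 12.9 CPM in TRAP1 KO M2 in control medium and at 88.3, 80.4 and 79.6 CPM with MPNST-CM, a log2 fold change of 2.58 ± 0.16 (adjusted p = 4.4e-13). In WT M2 it was at 9.86, 8.42 and 7.28 CPM and 18.5, 23.04 and 25.03 CPM (1.33 ± 0.18, adjusted p = 1.6e-06). Neither pair of groups overlapped. Ddx58, encoding the RNA sensor RIG-I, and Dhx58, encoding its relative LGP2, had log2 fold changes of 1.90 and 2.26 in TRAP1 KO M2 and 1.07 and 0.79 in WT M2. Ifih1, encoding MDA5, a sensor of long double-stranded RNA, was the sensor not called in WT M2, at 20.5, 24.9 and 21.01 CPM in control medium and 38.8, 23.04 and 27.1 CPM with MPNST-CM (adjusted p = 0.082). In TRAP1 KO Mφ Ifih1 fell by 0.45 ± 0.14 on the log2 scale with MPNST-CM, from 94.2, 80.1 and 73.4 CPM to 71.5, 57.3 and 58.2 CPM (adjusted p = 0.014), and without replicate 1 of the control group the value was -0.35 with an adjusted p of 0.094. Zbp1, Ddx58 and Dhx58 were not called across 27 libraries for MPNST-CM in TRAP1 KO M2, at log2 fold changes of 0.68, 0.72 and 0.35, respectively (adjusted p from 0.28 to 0.76). Zbp1, Ddx58 and Dhx58 were not called across 27 libraries for MPNST-CM in WT M2, at log2 fold changes of 1.38, 1.12 and 0.84, respectively (adjusted p from 0.15 to 0.51). Ifih1 was not called across 27 libraries for MPNST-CM in TRAP1 KO Mφ, at a log2 fold change of -0.41 (adjusted p = 0.52).

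The products of the 5 OAS genes make the signal that activates RNase L or resemble the enzymes that do. All 5 rose in TRAP1 KO M2 with MPNST-CM, beside 16.7% of all genes. With all 27 libraries 0 of the 5 were called there, beside 6.02% in either direction. Oasl1 was at 0.883, 1.05 and 0.677 CPM in control medium and 15.04, 14.03 and 15.6 CPM with MPNST-CM, and its log2 fold change of 4.05 ± 0.26 (adjusted p = 7.4e-13) rests on few counts in the controls. In batch 2 the order was the opposite, with 45.9 CPM in the library labelled TRAP1 KO M2 in control medium and 1.04 CPM in that labelled MPNST-CM. Oas2 was at 15.9, 16.2 and 12.6 CPM and 63.9996, 66.2 and 63.7 CPM (2.09 ± 0.11, adjusted p = 3.4e-14). In WT M2 Oas2 went from 11.8, 9.84 and 10.8 to 26.2, 25.998 and 28.7 CPM (1.27 ± 0.12, adjusted p = 7.1e-09), so that the TRAP1 KO libraries with MPNST-CM were the highest of the 4 M2 groups for both genes. Oasl2 reached 202 ± 2.94 CPM (SD, n = 3) in TRAP1 KO M2 with MPNST-CM against 46.8 ± 2.69 CPM in WT M2. In Mφ the OAS genes differed little between media: the log2 fold changes were between -0.28 and 0.56 in WT and between -0.45 and 0.03 in TRAP1 KO. Oasl1, the one OAS gene higher with MPNST-CM in WT Mφ (9.98, 7.18 and 8.48 CPM against 12.8, 12.2 and 13.5 CPM, adjusted p = 0.029), had an adjusted p of 0.14 without replicate 2 of the control group. Across 27 libraries, Oasl1 lost its calls for MPNST-CM in TRAP1 KO M2 and MPNST-CM in WT Mφ, at log2 fold changes of -0.14 and 0.73 (adjusted p from 0.72 to 0.95). Across 27 libraries, Oas2 lost its calls for MPNST-CM in TRAP1 KO M2 and MPNST-CM in WT M2, at log2 fold changes of 0.31 and 1.32 (adjusted p from 0.25 to 0.78).

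The 15 antiviral effectors rose in TRAP1 KO M2 and mostly fell in TRAP1 KO Mφ when MPNST-CM was added. In TRAP1 KO M2 all 15 rose with MPNST-CM, beside 16.7% of all genes, by a median log2 fold change of 2.27. In WT M2 8 were higher and 1 lower, beside 11.2% and 13.3%. The lower one was Mx1, which encodes a GTPase that blocks influenza-like viruses (-0.73, adjusted p = 3.1e-04). With all 27 libraries 1 of the 15 was called in TRAP1 KO M2 (median 0.37) and 0 in WT M2. The shares of all genes were then 6.02% and 7.39% in either direction. Ifi44, a cytoplasmic interferon-induced protein gene, was at 11.5, 11.3 and 10.2 CPM in TRAP1 KO M2 in control medium and 167, 155 and 169 CPM with MPNST-CM (log2 fold change 3.87 ± 0.15, adjusted p = 1.7e-17). In WT M2 it was at 5.68, 6.09 and 10.4 CPM and 12.6, 16.2 and 17.1 CPM. With MPNST-CM all TRAP1 KO M2 libraries thus exceeded all WT ones, by 3.47 ± 0.14 on the log2 scale (adjusted p = 2.0e-16). Rtp4, encoding a chaperone for G protein-coupled receptors with antiviral activity, was the effector with the largest rise in WT M2, from 62.9, 69.9 and 66.1 to 213, 259 and 258 CPM (1.82 ± 0.09, adjusted p = 3.9e-14), and went from 99.4, 112 and 97.2 to 651, 692 and 694 CPM in TRAP1 KO M2. Mx1 and Rtp4 were not called across 27 libraries for MPNST-CM in WT M2, at log2 fold changes of -0.67 and 1.88 (adjusted p from 0.12 to 0.64). Rtp4 was at 1038 CPM in the batch 2 library labelled TRAP1 KO M2 in control medium and 97.5 CPM in that labelled MPNST-CM. Ifi44 was not called across 27 libraries for MPNST-CM in TRAP1 KO M2, at a log2 fold change of 0.66 (adjusted p = 0.68). Ifi44 was not called across 27 libraries for genotype in M2 in MPNST-CM, at a log2 fold change of 3.03 (adjusted p = 0.051).

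Isg15 encodes a ubiquitin-like protein that is conjugated to other proteins, and it is shown here as an example of a promoter with 3 overlapping matches to the ISRE. The searched form of the ISRE was GAAANNGAAA or its reverse complement TTTCNNTTTC, on both strands, in RefSeq promoters of GRCm38.p6, and matches may overlap. Each promoter ran from 250 bases before to 50 after a position of its own, called the promoter start here. Of the 48 promoters of the listed genes, 20 began 250 bases before the gene start, and the others began elsewhere. The window below lies on the minus strand at chr4:156200850-156200921, its first match starts 78 bases before the promoter start, and capitals mark the matching bases.
Isg15: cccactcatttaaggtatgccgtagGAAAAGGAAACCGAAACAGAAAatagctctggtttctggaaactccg
Promoters were found for 40 of the 49 genes, and 24 of them (60.0%) held the motif, against 4.04% of the 9906 tested genes with a promoter and 3.99% of all 27025 genes. The share was 6 of 7 Ifi200 genes, 3 of 3 GBP genes, 5 of 11 antiviral effectors, 3 of 6 Schlafen genes and 2 of 4 IFITM genes. A match is a description of the letters in the window and not evidence of binding. The count table was made on build mm39, and the positions given here are those of GRCm38.p6.

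In the Isg15 row itself the levels were 1.62, 0.524 and 1.62 CPM in TRAP1 KO M2 in control medium and 20.1, 20.4 and 15.5 CPM with MPNST-CM, a log2 fold change of 3.87 ± 0.27 (adjusted p = 5.7e-12). In WT M2 they were 1.34, 1.81 and 1.26 CPM and 2.996, 2.19 and 2.38 CPM, which did not pass the test (adjusted p = 0.12). Isg15 was not called across 27 libraries for MPNST-CM in TRAP1 KO M2, at a log2 fold change of 1.496 (adjusted p = 0.17).

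In Mφ the effectors moved down with MPNST-CM in TRAP1 KO cells, 10 of 15 passing the test, beside 18.1% of all genes. With all 27 libraries 4 of the 15 were lower there, beside 19.3% in either direction. Ifit2, whose product binds viral RNA and curbs translation, was at 300.4, 309 and 297 CPM in control medium and 51.2, 49.3 and 57.98 CPM with MPNST-CM. In WT Mφ it was at 104, 116 and 112 CPM and 56.1, 66.8 and 61.95 CPM. TRAP1 KO therefore stood highest in control medium and below or among the WT libraries in MPNST-CM. Ifit2 fell by 2.56 ± 0.11 on the log2 scale in TRAP1 KO (adjusted p = 1.9e-16) and by 0.87 ± 0.10 in WT (adjusted p = 6.6e-07), and the interaction was -1.69 ± 0.15 (adjusted p = 1.7e-09). In TRAP1 KO M2, in contrast, Ifit2 went from 18.99, 14.9 and 18.7 to 93.03, 85.9 and 96.95 CPM. Rsad2 (viperin) and Cmpk2, neighbouring genes that act on nucleotides, and Mx1 had the same order: in TRAP1 KO Mφ Rsad2 went from 1141 ± 55.5 to 252 ± 3.82 CPM, Cmpk2 from 181 ± 4.93 to 38.8 ± 0.509 CPM and Mx1 from 92.5 ± 2.66 to 25.4 ± 0.909 CPM (SD, n = 3). Across 27 libraries, Ifit2 lost its calls for MPNST-CM in WT Mφ and the interaction in Mφ, at log2 fold changes of -0.68 and -1.83 (adjusted p from 0.26 to 0.58). The batch 2 libraries labelled TRAP1 KO M2 had 171 CPM of Ifit2 in control medium and 20.7 CPM in MPNST-CM.

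The remaining effectors are given by their log2 fold changes with MPNST-CM in TRAP1 KO M2 and TRAP1 KO Mφ. Ifit1 and Ifit3, further RNA-binding proteins of the Ifit2 family, had 3.35 and 3.02 in M2 and -1.25 and -1.62 in Mφ. Isg20, an exonuclease gene, and Mx2 had 2.66 and 1.59 in M2 and -0.67 and -1.26 in Mφ. Parp14, an ADP-ribosyltransferase gene, and Ifi35 had 0.89 and 1.05 in M2 and -0.92 and -0.32 in Mφ, and all 12 of these values passed the test. Bst2, whose product tethers virions to the cell surface, was at 1.30 in M2 and at 0.29 in Mφ, where it did not pass (adjusted p = 0.11). Ifit3, Isg20, Mx2, Parp14, Ifi35 and Bst2 were not called across 27 libraries for MPNST-CM in TRAP1 KO M2, at log2 fold changes of 0.14, 0.90, -0.47, 0.34, 0.18 and -0.01, respectively (adjusted p from 0.36 to 0.99). Ifit3, Ifit1, Isg20, Mx2 and Ifi35 were not called across 27 libraries for MPNST-CM in TRAP1 KO Mφ, at log2 fold changes of -1.57, -1.21, -0.62, -1.21 and -0.27, respectively (adjusted p from 0.18 to 0.66).

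Xaf1, encoding a pro-apoptotic protein, was lower in TRAP1 KO in 3 of the 4 settings. It was at 72.1, 68.8 and 65.9 CPM in WT Mφ in control medium and 25.5, 15.4 and 13.8 CPM in TRAP1 KO Mφ. In M2 in control medium it was at 13.7, 15.02 and 15.7 CPM in WT and 5.15, 2.62 and 3.66 CPM in TRAP1 KO. The genotypes did not overlap in either setting, with log2 fold changes of TRAP1 KO over WT of -1.87 ± 0.20 (adjusted p = 3.8e-07) and -1.95 ± 0.27 (adjusted p = 1.8e-05), and of -1.65 ± 0.20 in Mφ in MPNST-CM (adjusted p = 7.1e-07). In M2 in MPNST-CM the levels were 23.5, 18.8 and 17.7 CPM in WT and 18.9, 18.9 and 17.8 CPM in TRAP1 KO, a log2 difference of -0.06 ± 0.21 (adjusted p = 0.85). Batch 2 did not hold this pattern: Xaf1 was at 6.25 CPM in its WT Mφ library and at 106 CPM in its library labelled TRAP1 KO M2 in control medium, and over all 27 libraries the difference in M2 in control medium turned to 1.01 (adjusted p = 0.50). Across 27 libraries, Xaf1 lost its calls for genotype in Mφ in control medium and genotype in Mφ in MPNST-CM, at log2 fold changes of -1.54 and -1.67 (adjusted p from 0.21 to 0.38).

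Gbp2, Gbp3 and Gbp7 encode GTPases that attack vacuoles holding intracellular microbes, and they answer to interferon gamma as well as to type I interferon. Gbp2 was at 48.5, 43.8 and 47.5 CPM in WT M2 in control medium and 10.2, 8.75 and 9.40 CPM with MPNST-CM. In TRAP1 KO M2 it was at 30.8, 30.9 and 32.2 CPM and 41.2, 40.98 and 41.1 CPM. WT and TRAP1 KO M2 therefore moved in opposite directions, by -2.35 ± 0.11 in WT (adjusted p = 6.7e-15) and 0.37 ± 0.10 in TRAP1 KO (adjusted p = 0.0038), with an interaction of 2.72 ± 0.15 (adjusted p = 5.2e-13). In Mφ, Gbp2 was at 44.9, 38.9 and 38.2 CPM in WT and 103, 94.7 and 96.97 CPM in TRAP1 KO in control medium, and at 21.9, 25.7 and 22.3 CPM and 23.3, 23.4 and 27.97 CPM in MPNST-CM, where the genotypes overlapped. Gbp3 had the same signs in M2 (-1.02 in WT and 1.47 in TRAP1 KO, both past the test). Gbp7 rose in both, from 20.6, 13.5 and 19.4 to 121, 108 and 121 CPM in TRAP1 KO M2 (2.69 ± 0.27, adjusted p = 1.8e-07) and from 17.03, 15.8 and 12.3 to 41.7, 26.5 and 22.4 CPM in WT M2 (0.96 ± 0.28, adjusted p = 0.018). Over all 27 libraries the Gbp2 change was -2.30 in WT M2 (adjusted p = 1.1e-06) and 0.18 in TRAP1 KO M2 (adjusted p = 0.58), where the batch 2 libraries had 44.1 CPM in control medium and 33.9 CPM in MPNST-CM. Gbp3 and Gbp7 were not called across 27 libraries for MPNST-CM in WT M2, at log2 fold changes of -0.96 and 1.01 (adjusted p from 0.17 to 0.39). Gbp3 and Gbp7 were not called across 27 libraries for MPNST-CM in TRAP1 KO M2, at log2 fold changes of 0.69 and 1.24 (adjusted p from 0.17 to 0.23).

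The Ifi200 family encodes nuclear and cytoplasmic proteins that bind DNA, and its genes lie in 1 cluster on mouse chromosome 1. The promoter windows of 5 members are shown because each holds the same motif in the sense direction. Ifi205, not shown, held such a match farther out, 134 bases before its promoter start. All are on the minus strand of GRCm38.p6, at chr1:173599311-173599370 for Ifi213, chr1:173913049-173913108 for Ifi211, chr1:173942493-173942552 for Ifi203, chr1:173880189-173880248 for Mndal and chr1:173741816-173741875 for Ifi207. Capitals mark the match to GAAANNGAAA, which starts 73, 37, 35, 36 and 41 bases before the respective promoter starts.
Ifi213: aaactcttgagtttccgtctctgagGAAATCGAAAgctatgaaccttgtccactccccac
Ifi211: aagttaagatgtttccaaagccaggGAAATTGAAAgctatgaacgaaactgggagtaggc
Ifi203: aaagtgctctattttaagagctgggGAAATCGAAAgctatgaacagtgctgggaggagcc
Mndal: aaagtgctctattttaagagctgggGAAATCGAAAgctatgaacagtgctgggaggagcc
Ifi207: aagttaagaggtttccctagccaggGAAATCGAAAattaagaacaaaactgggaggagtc
The windows of Ifi203 and Mndal were identical over all 60 bases, and that of Ifi213 matched Ifi203 at 34, Ifi211 at 30 and Ifi207 at 29 of 60. Whether reads were shared between the rows of Ifi203 and Mndal was not tested.

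Ifi213 had the widest range of group means in the family after Ifi205. It was at 2.99, 2.98 and 2.94 CPM in WT and 4.71, 5.11 and 3.66 CPM in TRAP1 KO M2 in control medium. With MPNST-CM it was at 2.12, 3.86 and 2.25 CPM in WT M2 and 62.8, 62.3 and 56.99 CPM in TRAP1 KO M2. The WT libraries in the 2 media overlapped (-0.17 ± 0.20, adjusted p = 0.71), and the TRAP1 KO libraries lay far apart (3.73 ± 0.14, adjusted p = 1.4e-17). In Mφ in control medium Ifi213 was at 21.9, 22.2 and 23.4 CPM in WT and 50.3, 50.2 and 47.3 CPM in TRAP1 KO, and in MPNST-CM at 12.2, 11.9 and 13.4 CPM and 34.6, 36.96 and 38.1 CPM. It fell by 0.87 ± 0.12 in WT (adjusted p = 7.8e-06) and 0.48 ± 0.11 in TRAP1 KO (adjusted p = 0.0012) on the log2 scale, and TRAP1 KO stood above WT in all 4 settings, with log2 differences from 0.62 in M2 in control medium to 4.51 in M2 in MPNST-CM. The batch 2 libraries labelled TRAP1 KO M2 had 117 CPM in control medium and 3.84 CPM in MPNST-CM. Across 27 libraries, Ifi213 lost its calls for MPNST-CM in TRAP1 KO M2, MPNST-CM in WT Mφ and MPNST-CM in TRAP1 KO Mφ, at log2 fold changes of 0.48, -0.67 and -0.43, respectively (adjusted p from 0.74 to 0.8).

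As a family, 7 of 8 Ifi200 genes were lower with MPNST-CM in WT Mφ and 5 in TRAP1 KO Mφ, beside 9.96% and 18.1% of all genes, while 7 of 8 were higher in TRAP1 KO M2 and 1, Ifi211, in WT M2, beside 16.7% and 11.2%. Across all 27 libraries 1 was lower in WT Mφ and 3 in TRAP1 KO Mφ, beside 6.98% and 19.3% in either direction. In TRAP1 KO M2 and in WT M2 0 of 8 were then called, beside 6.02% and 7.39%. The family median in TRAP1 KO M2 was 0.43. Mndal went from 772, 635 and 578 to 389.7, 366 and 335 CPM in WT Mφ (-0.89 ± 0.19, adjusted p = 0.002). Ifi203 went from 782, 727 and 719 to 314, 253 and 265 CPM in TRAP1 KO Mφ (-1.47 ± 0.12, adjusted p = 9.9e-11). In both cases the media did not overlap. In M2 in control medium Ifi203 was at 95.4, 100.4 and 81.1 CPM in WT and 145, 161 and 147 CPM in TRAP1 KO (0.74 ± 0.12, adjusted p = 7.6e-05). Ifi211 went from 15.8, 16.2 and 15.97 to 22.7, 27.2 and 25.03 CPM in WT M2 (0.59 ± 0.13, adjusted p = 0.0014) and from 15.2, 13.5 and 20.3 to 98.8, 101 and 99.1 CPM in TRAP1 KO M2. Ifi204, Ifi207 and Ifi209 rose in TRAP1 KO M2 by 2.04, 0.30 and 2.34 on the log2 scale. Ifi205 was the one gene of the family not called in any medium or genotype comparison, and its replicates spread widely, at 9.40, 32.9 and 27.8 CPM in TRAP1 KO Mφ in control medium and 21.3, 1.96 and 2.68 CPM in MPNST-CM. Mndal was not called across 27 libraries for MPNST-CM in WT Mφ, at a log2 fold change of -0.71 (adjusted p = 0.099). Ifi211 was not called across 27 libraries for MPNST-CM in WT M2, at a log2 fold change of 0.64 (adjusted p = 0.65). The batch 2 libraries labelled TRAP1 KO M2 had 168 CPM of Ifi211 in control medium and 24.2 CPM in MPNST-CM. Ifi204, Ifi207 and Ifi209 were not called across 27 libraries for MPNST-CM in TRAP1 KO M2, at log2 fold changes of 1.02, 0.25 and 0.31, respectively (adjusted p from 0.11 to 0.79).

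Outside the list, the 5 genes whose group means over the 8 groups of batch 1 correlated best with the mean of the Ifi200 family were Dtx3l (Pearson's r 0.994), Samd9l (0.990), Gbp5 (0.985), Oard1 (0.983) and Ifi208 (0.983). These are descriptions over 8 points that share their libraries. Dtx3l, an E3 ubiquitin ligase gene, ranged from 44.6 CPM in WT M2 in MPNST-CM to 169 CPM in TRAP1 KO Mφ in control medium.

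**Figure D4:**
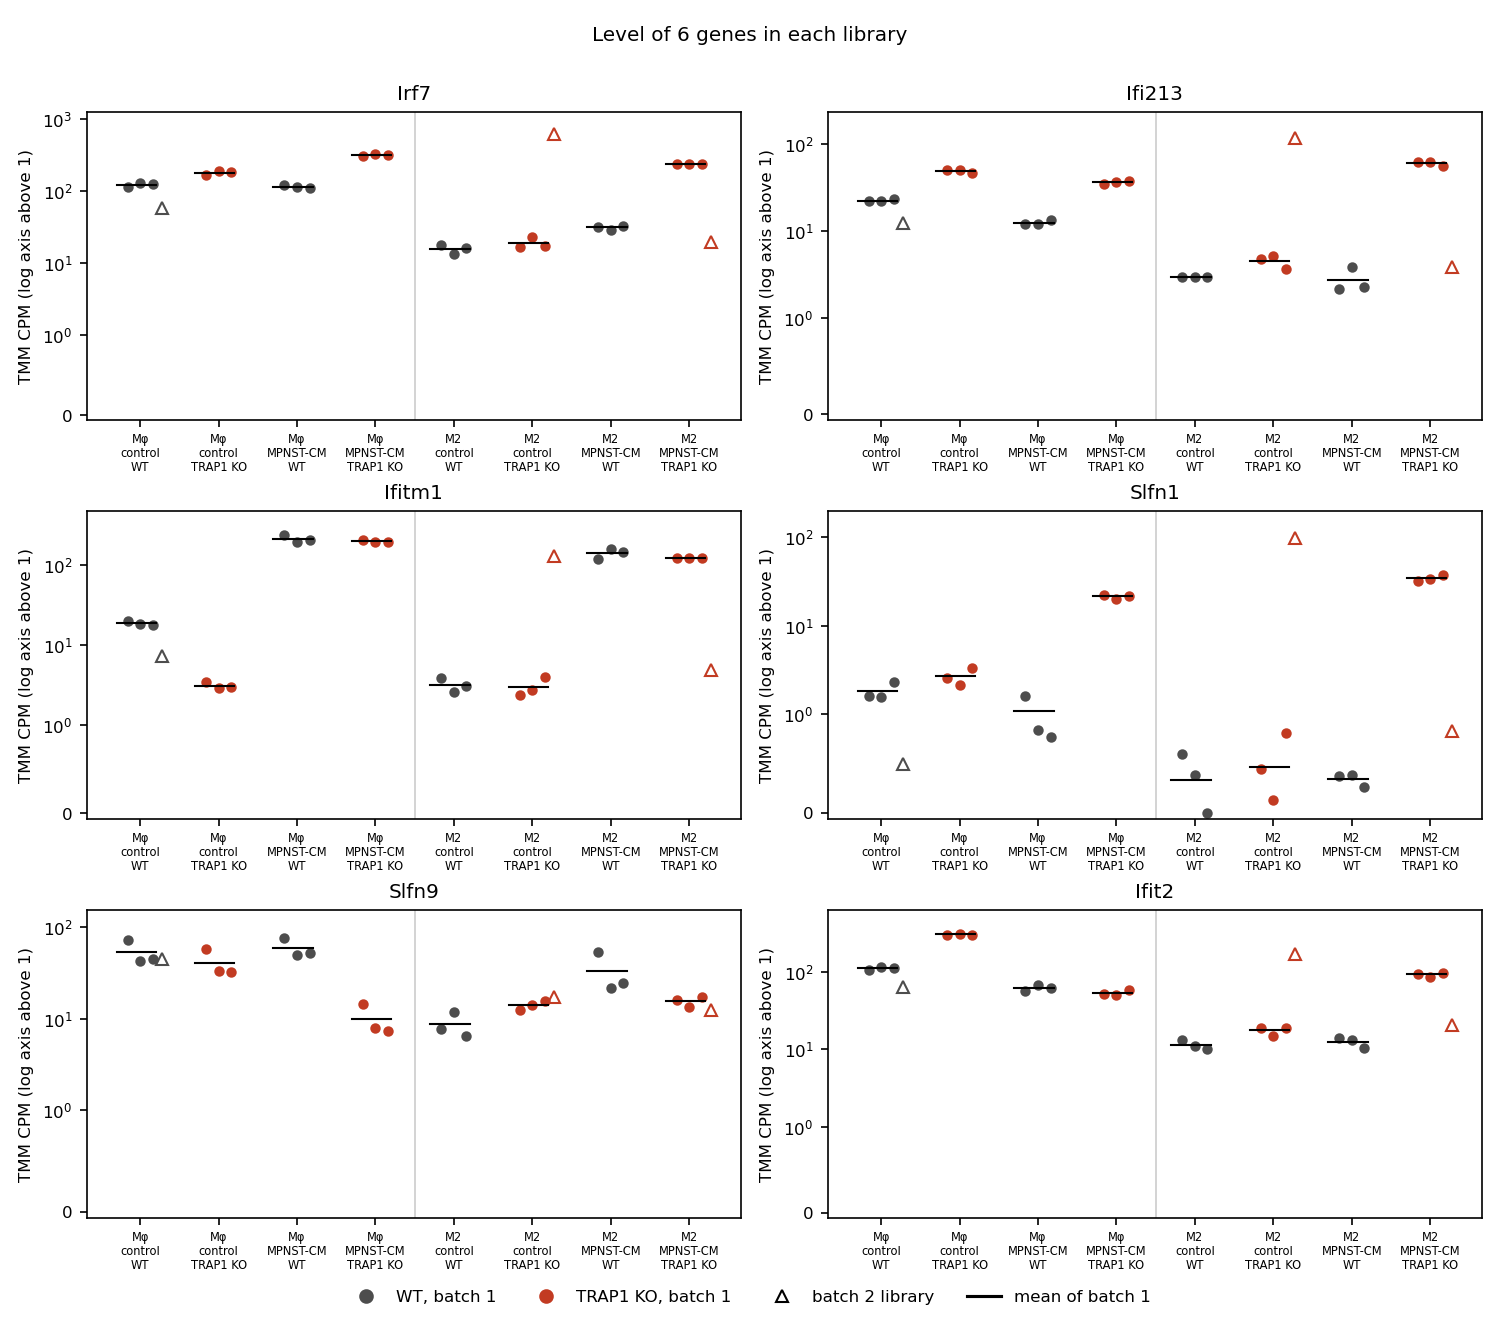
TMM-normalized CPM (vertical axes, logarithmic above 1 CPM and linear below) of Irf7, Ifi213, Ifitm1, Slfn1, Slfn9 and Ifit2 in each library, by group. Points, lines and triangles are batch 1 libraries, batch 1 means and batch 2 libraries. Slfn1 was at 22.2, 19.8 and 21.7 CPM in TRAP1 KO Mφ and 31.5, 33.8 and 37.2 CPM in TRAP1 KO M2 in MPNST-CM, and at most 3.34 CPM in the other batch 1 libraries.

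Schlafen proteins act on tRNA and on cell growth, and the mouse genes form a cluster on chromosome 11. Slfn1 and Slfn4, growth-regulating members, were found almost entirely in TRAP1 KO cells exposed to MPNST-CM. Slfn1 was at 31.5, 33.8 and 37.2 CPM in TRAP1 KO M2 and 22.2, 19.8 and 21.7 CPM in TRAP1 KO Mφ with MPNST-CM. Without MPNST-CM it was at 0.442, 0.131 and 0.812 CPM and 2.56, 2.16 and 3.34 CPM in the same cells. In WT cells it was at 1.60, 1.57 and 2.29 CPM in Mφ and 0.597, 0.388 and 0 CPM in M2 in control medium. With MPNST-CM the WT levels were 1.63, 0.836 and 0.774 CPM in Mφ and 0.375, 0.386 and 0.265 CPM in M2, so the genotypes did not overlap in MPNST-CM. The log2 fold change of TRAP1 KO over WT in MPNST-CM was 4.30 ± 0.28 in Mφ (adjusted p = 2.5e-12) and 6.63 ± 0.34 in M2 (adjusted p = 2.2e-14), and the interaction of genotype and medium was 3.71 ± 0.45 (adjusted p = 4.8e-07) and 6.12 ± 0.97 (adjusted p = 2.9e-05). With 0 to 6 counts in the M2 libraries it is compared with, the size of the fitted M2 values depends on the prior count. Across 27 libraries, Slfn1 lost its calls for genotype in Mφ in MPNST-CM, the interaction in Mφ and the interaction in M2, at log2 fold changes of 4.28, 3.39 and -0.03, respectively (adjusted p from 0.052 to 1).

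Slfn4 had the same order at lower levels, at 22.2, 22.003 and 24.1 CPM in TRAP1 KO M2 and 10.1, 10.9 and 16.99 CPM in TRAP1 KO Mφ with MPNST-CM, and at most 2.42 CPM in any other batch 1 library. Its log2 fold change with MPNST-CM was 6.27 ± 0.54 in TRAP1 KO M2 (adjusted p = 1.3e-09) and 2.82 ± 0.41 in TRAP1 KO Mφ (adjusted p = 5.7e-06). The batch 2 library labelled TRAP1 KO M2 in control medium had 96.6 CPM of Slfn1 and 49.4 CPM of Slfn4, and that labelled TRAP1 KO M2 in MPNST-CM had 0.8294 and 0.518 CPM. The promoters of the pair are shown whole, on the plus strand of GRCm38.p6 at chr11:83116570-83116869 for Slfn1 and chr11:83174936-83175235 for Slfn4, because neither held a match to GAAANNGAAA, which says only that these letters are not in this window. They were identical at 42.9% of aligned positions.
Slfn1: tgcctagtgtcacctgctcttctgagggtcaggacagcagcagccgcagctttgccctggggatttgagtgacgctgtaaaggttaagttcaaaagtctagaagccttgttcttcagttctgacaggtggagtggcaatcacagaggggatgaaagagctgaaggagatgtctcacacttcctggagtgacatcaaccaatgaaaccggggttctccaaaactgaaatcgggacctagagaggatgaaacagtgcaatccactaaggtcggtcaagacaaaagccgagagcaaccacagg
Slfn4: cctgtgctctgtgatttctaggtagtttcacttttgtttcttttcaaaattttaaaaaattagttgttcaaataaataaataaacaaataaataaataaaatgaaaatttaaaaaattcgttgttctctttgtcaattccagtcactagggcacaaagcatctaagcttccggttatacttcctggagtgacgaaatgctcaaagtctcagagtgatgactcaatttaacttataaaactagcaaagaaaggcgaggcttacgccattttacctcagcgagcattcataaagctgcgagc
Across 27 libraries, Slfn4 lost its calls for MPNST-CM in TRAP1 KO M2 and MPNST-CM in TRAP1 KO Mφ, at log2 fold changes of 0.40 and 2.87 (adjusted p from 0.16 to 0.86).

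Slfn8 and Slfn9 are neighbours with similar promoters, identical at 80.5% of aligned positions, and they parted in TRAP1 KO cells with MPNST-CM. Their windows are on the minus strand at chr11:83020824-83020883 for Slfn8 and chr11:82991841-82991900 for Slfn9, with the match to TTTCNNTTTC in capitals, 48 and 45 bases before the promoter starts.
Slfn8: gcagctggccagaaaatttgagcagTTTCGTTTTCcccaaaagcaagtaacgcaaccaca
Slfn9: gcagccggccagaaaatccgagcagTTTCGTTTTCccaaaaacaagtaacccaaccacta
Slfn9 was in MPNST-CM at 76.6, 49.7 and 52.99 CPM in WT Mφ and 14.5, 7.83 and 7.28 CPM in TRAP1 KO Mφ. In control medium it was at 73.2, 43.3 and 44.6 CPM in WT Mφ and 57.9, 33.3 and 32.2 CPM in TRAP1 KO Mφ. These ranges overlapped, with replicate 1 the highest in each group. By replicate number TRAP1 KO was the lower each time, and pairing by number was not established. TRAP1 KO was lower in MPNST-CM by 2.58 ± 0.39 on the log2 scale (adjusted p = 3.9e-05), and MPNST-CM lowered it in TRAP1 KO by 2.11 ± 0.39 (adjusted p = 3.5e-04). In M2 it rose with MPNST-CM in WT, from 7.77, 11.9 and 6.44 to 53.7, 21.5 and 24.8 CPM (1.89 ± 0.41, adjusted p = 0.002), and in TRAP1 KO M2 it was at 12.5, 14.1 and 15.7 CPM and 15.8, 13.4 and 17.4 CPM (0.11 ± 0.40, adjusted p = 0.87).

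Slfn8 in the same cells stood in MPNST-CM at 70.1, 62.7 and 59.4 CPM in WT Mφ and 81.05, 69.6 and 66.5 CPM in TRAP1 KO Mφ, a difference that did not pass (adjusted p = 0.26). In TRAP1 KO M2 it rose from 24.1, 28.2 and 24.6 to 74.6, 77.7 and 87.2 CPM (1.61 ± 0.14, adjusted p = 3.9e-10). Whether reads were shared between these rows was not tested. Slfn5 was in TRAP1 KO M2 with MPNST-CM at 473, 496 and 465 CPM against 149.6, 152 and 134 CPM in control medium (log2 fold change 1.70 ± 0.08, adjusted p = 9.4e-16). It fell in WT Mφ from 346, 327 and 339.7 to 261, 252 and 216 CPM (-0.50 ± 0.08, adjusted p = 2.1e-05). Slfn2 had log2 fold changes between -0.49 and 0.75 in the medium and genotype comparisons, and the highest of them did not pass (adjusted p = 0.081). Slfn8 and Slfn5 were not called across 27 libraries for MPNST-CM in TRAP1 KO M2, at log2 fold changes of 0.24 and 0.43 (adjusted p from 0.58 to 0.8). Slfn5 was not called across 27 libraries for MPNST-CM in WT Mφ, at a log2 fold change of -0.35 (adjusted p = 0.72).

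The 4 IFITM genes, whose products block the fusion of enveloped viruses with cell membranes, were the exception in Mφ: all 4 rose with MPNST-CM in each of the 4 settings. Ifitm1 went from 20.1, 18.1 and 17.5 to 235, 193 and 207 CPM in WT Mφ and from 3.42, 2.92 and 2.96 to 207, 194 and 194 CPM in TRAP1 KO Mφ. In M2 it went from 3.88, 2.59 and 3.08 to 119, 159 and 146 CPM in WT and from 2.36, 2.75 and 3.93 to 122, 124 and 121 CPM in TRAP1 KO. In batch 1 all 12 libraries with MPNST-CM thus exceeded all 12 without it. Batch 2 broke this order, with 129 CPM in the library labelled TRAP1 KO M2 in control medium and 4.87 CPM in that labelled MPNST-CM. The log2 fold changes were 3.48 ± 0.12 in WT Mφ (adjusted p = 4.2e-17), 5.94 ± 0.15 in TRAP1 KO Mφ (adjusted p = 6.5e-21), 5.42 ± 0.15 in WT M2 (adjusted p = 8.7e-20) and 5.31 ± 0.15 in TRAP1 KO M2 (adjusted p = 4.0e-20). In control medium TRAP1 KO Mφ against WT Mφ had -2.53 ± 0.15 (adjusted p = 4.3e-12), whereas in MPNST-CM the genotypes differed by -0.07 ± 0.10 in Mφ (adjusted p = 0.61) and -0.15 ± 0.10 in M2 (adjusted p = 0.28). Across 27 libraries, Ifitm1 lost its calls for MPNST-CM in TRAP1 KO M2 and genotype in Mφ in control medium, at log2 fold changes of 1.40 and -2.33 (adjusted p from 0.3 to 0.36).

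Ifitm6 differed between genotypes as well as media. It was at 12.3, 15.8 and 15.7 CPM in WT and 27.1, 31.02 and 24.2 CPM in TRAP1 KO Mφ in control medium, and at 51.03, 38.6 and 40.05 and 187, 209 and 185 CPM in MPNST-CM. In M2 it was at 3.44, 2.98 and 1.82 and 10.01, 14.4 and 16.7 CPM in control medium and 15.5, 16.7 and 19.7 and 123, 135 and 106 CPM in MPNST-CM. TRAP1 KO lay above WT without overlap in all 4 settings. The differences were 0.95 ± 0.17 (adjusted p = 1.3e-04), 2.18 ± 0.15 (adjusted p = 7.5e-12), 2.34 ± 0.23 (adjusted p = 3.4e-08) and 2.86 ± 0.16 (adjusted p = 2.1e-13) in that order, and the interaction of genotype and medium passed in Mφ (1.23 ± 0.22, adjusted p = 1.5e-04) and not in M2 (0.52 ± 0.30, adjusted p = 0.25). Across 27 libraries, Ifitm6 lost its calls for genotype in Mφ in control medium and the interaction in Mφ, at log2 fold changes of 0.91 and 1.25 (adjusted p from 0.57 to 0.58).

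Ifitm3, the member best known for restricting influenza virus, had the most counts of the list. It was at 668, 650.4 and 619 CPM in WT M2 and 1565, 1761 and 1539 CPM in TRAP1 KO M2 in control medium, and at 2026, 2729.8 and 2565 and 4015, 3787 and 4344 CPM in MPNST-CM. In Mφ it was at 2161, 1877 and 1991 and 2709, 2469.8 and 2871 CPM in control medium and 4649, 3373 and 3511 and 4875, 4613 and 4289 CPM in MPNST-CM. WT M2 in control medium was thus the lowest group. The rise with MPNST-CM was 1.86 ± 0.11 in WT M2 (adjusted p = 6.5e-13) and 1.30 ± 0.11 in TRAP1 KO M2 (adjusted p = 1.9e-10), a difference of -0.57 ± 0.15 (adjusted p = 0.0082), so that for Ifitm3 the WT response was the larger one. TRAP1 KO above WT in Mφ in MPNST-CM (0.27 ± 0.11, adjusted p = 0.045) had an adjusted p of 0.25 without replicate 2 of WT, and 0.070 by DESeq2. Across 27 libraries, Ifitm3 lost its calls for MPNST-CM in TRAP1 KO M2, the interaction in M2 and genotype in Mφ in MPNST-CM, at log2 fold changes of 0.40, -1.52 and 0.26, respectively (adjusted p from 0.13 to 0.67).

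Ifitm2, a close relative of Ifitm3, rose in WT Mφ by 0.49 ± 0.08 (adjusted p = 7.1e-05), at 118, 142 and 143 CPM in control medium and 182, 196 and 196 CPM in MPNST-CM. In TRAP1 KO Mφ it was at 153, 159 and 172 and 440.0, 454 and 467 CPM, where MPNST-CM raised it by 1.44 ± 0.08 (adjusted p = 7.5e-14). The interaction was 0.96 ± 0.11 (adjusted p = 3.3e-07). In M2 the rises were 1.00 ± 0.08 in WT and 0.96 ± 0.08 in TRAP1 KO, both past the test. Its difference between genotypes in Mφ in control medium (0.31 ± 0.08, adjusted p = 0.0077) had an adjusted p of 0.082 without replicate 1 of WT. Across 27 libraries, Ifitm2 lost its calls for MPNST-CM in WT Mφ, the interaction in Mφ, MPNST-CM in TRAP1 KO M2 and genotype in Mφ in control medium, at log2 fold changes of 0.53, 0.97, 0.37 and 0.28, respectively (adjusted p from 0.11 to 0.6).

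Transcripts of the interferons themselves were close to absent at this depth. Of 12 interferon genes, Ifnb1, the first type I interferon that macrophages make, had at most 4 counts in any library and 0 in 19 of 27, and the other 11 were under 3 counts in every library. Of the 7 receptor and kinase genes, in TRAP1 KO M2 with MPNST-CM 3 were higher and 1 lower, beside 16.7% and 20.2% of all genes, with a median log2 fold change of 0.01. Ifngr1, a chain of the interferon gamma receptor, had the largest change among them (0.66 ± 0.08, adjusted p = 1.5e-07). In Mφ in MPNST-CM 5 of the 7 were higher in TRAP1 KO than in WT, beside 19.1%, with Ifngr1 at 1.41 ± 0.08 (adjusted p = 1.3e-13). Ifnar1 and Ifnar2, the chains of the type I receptor, were at 134 and 219.8 CPM in TRAP1 KO M2 in control medium and at 117 and 263 CPM in MPNST-CM. Among the signal transducers and interferon regulatory factors, Socs3, which encodes a feedback inhibitor of cytokine receptors, rose by 3.09 ± 0.27 in TRAP1 KO M2 (adjusted p = 5.4e-10), and Irf4, a factor induced by IL-4, fell by 2.94 ± 0.24 (adjusted p = 9.3e-11). Among the 13 upstream sensors and adaptors tested, 5 rose and 3 fell there, against the same shares of all genes, with Tlr3 at 1.05 ± 0.16 (adjusted p = 5.8e-06) and Sting1 at -0.65 ± 0.09 (adjusted p = 2.6e-06). Ifngr1, Socs3, Irf4, Tlr3 and Sting1 were not called across 27 libraries for MPNST-CM in TRAP1 KO M2, at log2 fold changes of 0.19, 0.36, -0.67, 0.25 and -0.33, respectively (adjusted p from 0.18 to 0.79). Of the 7 receptor and kinase genes 0 were then called there, and of the 13 sensors and adaptors 2, beside 6.02% in either direction. In Mφ in MPNST-CM 5 of the 7 were higher in TRAP1 KO with all 27 libraries, beside 22.6%.

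Further interferon-stimulated genes outside the 49 were counted in the same way, from lists that were also chosen with results of these data known. Of 46 tested, 38 were higher and 4 lower with MPNST-CM in TRAP1 KO M2, 12 higher and 10 lower in WT M2, and 3 higher and 30 lower in TRAP1 KO Mφ. In WT Mφ 1 was higher and 21 were lower. The shares of all genes higher and lower were 16.7% and 20.2% in TRAP1 KO M2, 11.2% and 13.3% in WT M2, 14.8% and 18.1% in TRAP1 KO Mφ, and 11.3% and 9.96% in WT Mφ. With all 27 libraries 2 of the 46 were higher in TRAP1 KO M2, with a median of 0.32, and 1 was lower in WT M2. In Mφ 9 were then lower in TRAP1 KO and 1 in WT. The shares of all genes called in either direction were 6.02%, 7.39%, 19.3% and 6.98%, in that order. Ly6a, a surface antigen gene, rose by 5.64 ± 0.18 in TRAP1 KO M2 (adjusted p = 7.6e-19) and by 1.94 ± 0.17 in WT M2 (adjusted p = 8.7e-10). Gbp4 rose by 3.65 ± 0.40 in TRAP1 KO M2 (adjusted p = 2.9e-08) and fell by 1.86 ± 0.43 in WT M2 (adjusted p = 0.0016), the signs that Gbp2 and Gbp3 had. The chemokine genes Cxcl10, Cxcl9 and Ccl5 fell by 5.48, 5.28 and 3.05 on the log2 scale in TRAP1 KO Mφ, and Cxcl10 was at 216 CPM in control medium and 4.99 CPM in MPNST-CM there. Of 13 tested paralogs of the families in the list, 11 were higher in TRAP1 KO M2 with MPNST-CM, beside 16.7% of all genes. Among them were Ifi206 (4.09 ± 0.16, adjusted p = 7.0e-17) and Ifi208 (3.32 ± 0.23, adjusted p = 3.4e-12). With all 27 libraries 2 of the 13 were called there, beside 6.02% in either direction, with a median of 0.37. Ly6a, Gbp4, Ifi206 and Ifi208 were not called across 27 libraries for MPNST-CM in TRAP1 KO M2, at log2 fold changes of 1.00, 0.64, 0.92 and 0.14, respectively (adjusted p from 0.52 to 0.94). Ly6a and Gbp4 were not called across 27 libraries for MPNST-CM in WT M2, at log2 fold changes of 1.99 and -1.81 (adjusted p from 0.32 to 0.41).

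Levels of some markers of other cells are given here, and their part in the results was not tested. Cox6a2, in the list for plasmacytoid dendritic cells, was at 31.4 CPM in TRAP1 KO Mφ and 20.3 CPM in TRAP1 KO M2 with MPNST-CM and at most 2.07 CPM in the other groups. Of the same list, Siglech was at 3.30, 3.56 and 2.70 CPM in TRAP1 KO Mφ in control medium and 0.127, 0 and 0.639 CPM with MPNST-CM, Ccr9 was at 2.20, 2.29 and 1.67 CPM and 2.41, 2.33 and 2.04 CPM, and Klk1 was at 0 counts throughout. Tcf4, the remaining and most abundant gene of that list, overlapped between media in TRAP1 KO Mφ. It was at 601, 481 and 507 CPM in control medium and 587, 481 and 476 CPM with MPNST-CM. Ly6c2, a monocyte marker, was at 20.6 CPM in TRAP1 KO Mφ with MPNST-CM, against 1.67 CPM in TRAP1 KO M2 with MPNST-CM. The batch 2 library labelled TRAP1 KO M2 in MPNST-CM had the neutrophil genes S100a8 and S100a9 at 162 and 202 CPM.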

How the data were processed

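QuantSeq 3′ mRNA libraries of 27 macrophage samples were compared. The authors deposited 1 table of raw counts per gene, and the submitters' processing notes name Trimmomatic, HISAT2, SAMtools, featureCounts and build mm39; the versions are not given in the sources used here. The 5 other columns of values in the table matched no sample label and were not used. Counts of the 24 libraries of batch 1 were normalized by TMM and tested with the edgeR (4.0.16, R 4.3.3) quasi-likelihood test over 13614 genes kept by filterByExpr, with Benjamini-Hochberg adjustment and a threshold of 0.05. The 8 groups came from the labels. CPM are TMM-normalized, and mean log2 CPM used a prior count of 2. Replicate values are given with the SD, fold changes with the standard error.

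The members and gene lists were chosen with earlier results of these data known. Values in every library were given for the 4 IFITM genes and, from each other family, for the gene with the largest called change in each medium and genotype comparison; Isg15, Stat2, Mx1, Rsad2, Cmpk2 and Ifi205 were named in addition after their values were seen. The gene of RIG-I is listed in the table as Ddx58. Promoters came from RefSeq (GRCm38.p6) and were matched by symbol. Alternatives were all 27 libraries, median-of-ratios size factors, DESeq2 (1.42.0), no low-count filter, a replicate block, a fold minimum, leaving out each library, a prior count of 0.5, and, chosen after the data were seen, batch 1 with the WT Mφ library of batch 2. Fits were tested on simulated data. Same-numbered libraries were not shown to be paired. Depth limits the precision of genes with few counts. Some items of the gene and marker lists are not reported here.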

Additional observations from a re-analysis of the deposited data

Results flagged for a closer look

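Batch 2 libraries lay far from the other libraries of their group in 9 of the 12 sets of 4 libraries examined. The sets were not independent, being the 3 groups with a batch 2 library, each scored on all 49 genes and on 3 families among them. Earlier results of these data had already set batch 2 libraries apart, so the count is a description. The mean log2 CPM of all 49 genes was 5.39 in the batch 2 library of WT Mφ in control medium against 6.08 to 6.14 in the others, 7.23 in that labelled TRAP1 KO M2 in control medium against 4.26 to 4.40, and 4.53 in that labelled TRAP1 KO M2 in MPNST-CM against 6.56 to 6.57. For the latter pair, in the same order, the IFITM genes were at 8.91 against 5.69 to 6.02 and at 6.13 against 8.55 to 8.56. The Schlafen genes were at 6.98 against 3.34 to 3.96 and at 3.82 against 6.09 to 6.28. The Ifi200 genes were at 7.27 against 4.76 to 4.97 and at 5.36 against 6.73 to 6.80.

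The effect of MPNST-CM differed between genotypes, by an interaction term, for 20 of the 49 genes in Mφ (8.17% of all genes higher and 11.5% lower) and 42 in M2 (9.36% and 10.8%). The effect of genotype differed between Mφ and M2 for 12 genes in control medium (3.86% and 3.22%) and 40 in MPNST-CM (4.06% and 3.12%). With all 27 libraries these counts were 2, 2, 1 and 1.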

How the results depend on the processing

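The number of the 49 genes called depended most on the batch 2 libraries. With all 27 libraries, MPNST-CM against control medium gave 2 calls in WT Mφ, 13 in TRAP1 KO Mφ, 5 in WT M2 and 1 in TRAP1 KO M2. TRAP1 KO against WT gave 1 in Mφ in control medium, 3 in Mφ in MPNST-CM and 20 in M2 in MPNST-CM. M2 against Mφ gave 29 (WT) and 14 (TRAP1 KO) in control medium and 8 (WT) in MPNST-CM, and for TRAP1 KO in MPNST-CM edgeR gave 0 calls, with 3 genes at an unadjusted p under 0.05; DESeq2 was run on batch 1 only. The interactions of genotype with medium gave 2 in Mφ and 2 in M2, and those with IL-4 gave 1 in control medium and 1 in MPNST-CM. Of 86 named fold changes 56 lost the call and 3 turned: Oasl1 with MPNST-CM in TRAP1 KO M2 to -0.14, and Usp18 and Xaf1 between genotypes in M2 in control medium to 0.41 and 1.01. With batch 1 and the WT Mφ library of batch 2, chosen after the data were seen, M2 against Mφ in TRAP1 KO with MPNST-CM gave 12 calls, and the 15 other counts were within 1.5 times.

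With a fold minimum of 1 on the log2 scale, calls for MPNST-CM were 2 in WT Mφ, both higher, 18 in TRAP1 KO Mφ and 15 in WT M2. For genotype they were 8 and 11 in Mφ in control medium and MPNST-CM and 5 in M2 in control medium. M2 against Mφ in MPNST-CM gave 29 in WT and 3 in TRAP1 KO, and the interactions gave 11 for medium in Mφ and 6 for IL-4 in control medium. All 16 counts stayed within 1.5 times under median-of-ratios size factors, DESeq2, no low-count filter and leaving out each library. Of the named fold changes, 7 lost the call without 1 library, 2 each under size factors, DESeq2 and no filter, and 3 with the added library. A prior count of 0.5 moved 8 of 64 family means by over 1 SD, 4 of them Schlafen (the lowest, WT M2 in control medium, to 2.88).

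Same-numbered libraries had a mean correlation of deviations of 0.107 over 77 pairs, 34 of them over 0.1, and different-numbered ones -0.0450 over 175 pairs, 29 over 0.1. Replicate 1 stood apart from 2 and 3 in 5 groups, with chi-square per degree of freedom from 16.04 to 37.4 against 2.11 to 3.42 between 2 and 3. WT M2 libraries in control medium are numbered 2, 3 and 4, so number 4 had no partner in batch 1, and pairing by another order was not tested. Not every same-numbered pair was over 0.1, which cannot show that pairing was absent, so pairing was neither established nor excluded. A replicate block by these numbers gave 46 calls for MPNST-CM in TRAP1 KO M2 and 42 for its interaction with genotype. It kept all 16 counts within 1.5 times.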
